A study of Mus musculus with 23 samples.

Results

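The comparison described here lies within a single mouse line, APPswlnd, in which a transgene expresses mutant human amyloid precursor protein as in familial Alzheimer disease. It set 4 samples of microglia from 12-month-old mice, labelled as having pathology, against 3 samples from 3-month-old mice of the same line, labelled as being ahead of it. Both groups carried the transgene, and both were sorted from cortex plus hippocampus as CD45+ CD11b+ cells. The aged cells were also gated for Clec7a, a C-type lectin receptor that marks the cells the labels call active, whereas no such gate is named for the young cells. Age, pathology and gate therefore changed together and cannot be told apart, and the groups are called gated and young below. The samples were chosen by their labels, and these 7 arrays are 7 of the 23 in the study. The promoter that drives the transgene, the sex of the mice and any pooling of mice are not given in the labels. The other samples came from C57BL6 wild-type mice (WT), with 4 samples at 3 months and 4 at 12 months and no gate named, and from the P301S (PS19) tau line (TAU), with 4 samples at 3 months and 4 Clec7a-gated samples at 9 months. Titles of the older TAU samples say 12 months, but their age field says 9 months, which was used. The replicates are called biological, but whether each is a different mouse is not stated, and the p-values then reflect only how far these samples spread.

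Microglia are the resident macrophages of the brain. In healthy tissue they express a set of genes, among them P2ry12, Tmem119 and Cx3cr1, that depends on TGF-beta and on signalling through the CSF1 receptor. Around amyloid plaques they take on a different state, often called disease-associated, in which TREM2, a receptor for lipids and lipoproteins that signals through the adaptor TYROBP, is needed for the full induction of genes for lipid handling, lysosomal digestion and phagocytosis. Clec7a is itself one of the genes of that state, so the gate selected cells by a member of it. Clec7a had no probe set with its symbol here.

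The values are log2 signals per probe set, so that a difference of 1 is a 2-fold difference. Differences are given as gated minus young with their standard error (SE). A probe set was called where limma's moderated test gave a Benjamini-Hochberg adjusted p under 0.05 over all 21008 probe sets fitted, and "rose" and "fell" are used for called genes alone. A level was read as background where a group's mean did not exceed the 95th percentile over 1464 probe sets for olfactory, vomeronasal, taste and trace amine receptors, a floor that averaged 8.0 on the young and 7.85 on the gated arrays. Where 1 group was at background, the fold is a lower bound against the higher of that floor and the measured value on each array. Genes on the X and Y chromosomes were left out of the fit.

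The arrays had medians between 6.9 and 7.04. Correlations over probe sets ran from 0.966 to 0.985 within the young group, from 0.969 to 0.984 within the gated group and from 0.938 to 0.967 between groups. The first principal component of the 7 arrays held 49.4% of the variance. Of the 2 sort markers, Itgam (CD11b) is described with the integrins. Ptprc, which encodes CD45, read 15.66, 15.90 and 15.48 in the young samples and 15.73, 15.29, 15.48 and 15.24 in the gated samples. Its groups overlapped, and the difference of -0.24 ± 0.21 was not called (limma adjusted p = 0.58). Mouse App, whose probes may not read the human transgene, differed by 0.22 ± 0.23 with overlapping groups (adjusted p = 0.664). The mean of 3 Y-linked genes (Kdm5d, Uty and Eif2s3y) was 4.47, 4.62 and 4.14 in the young samples and 6.75, 7.13, 5.96 and 4.16 in gated replicates 1 to 4. Gated replicates 1 to 3 were thus higher in this mean than every young sample, and gated replicate 4 was as low as the young samples. Kdm5d and Uty each followed that pattern. Eif2s3y did not: it read 4.15, 3.90 and 3.95 in young and 4.68, 4.71, 3.82 and 3.93 in gated samples.

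Gated APP microglia differed from young APP microglia in 1981 of 21008 probe sets, 9.43% of those fitted. Of these, 1073 (5.11%) rose and 908 (4.32%) fell, and 1484 (7.06%) differed by at least 1 on the log2 scale, 827 (3.94%) higher and 657 (3.13%) lower. The median difference over all probe sets was -0.04. The groups did not overlap in 1968 of the called probe sets, and among all probe sets 4261 (20.3%) had groups that did not overlap, 2117 (10.1%) higher and 2144 (10.2%) lower. Of the 6687 probe sets with both groups above background 1411 were called, against 206 of the 13088 at background in both. The share over all probe sets is therefore a low mark for lists of expressed genes. Counting rises and falls together, the called shares of the proteasome, proton pump, TGF-beta and iron lists below were not far from 1411 of 6687. Those counts are not read as changes of the lists. A further 227 calls rose from background and 137 fell to it. In bulk samples of this kind, fewer cells of a type and less RNA per cell cannot be told apart.

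The count of calls depended on single young arrays. Without young replicate 2 it was 1158, and without young replicate 3 it was 1116. Leaving out gated replicate 1 lowered the number that fell to 555. With the mean of the Y-linked genes as a covariate 634 probe sets were called, 627 of them among the 1981, and all 1981 kept the sign of their difference. That mean itself differed between the groups, except in gated replicate 4, so the fit estimates the group difference less precisely. A call lost with this covariate, here and below, cannot be told apart from a loss of precision. Gated replicate 4, whose Y-linked signal matched the young samples, was also set alone against the 3 young samples, an alternative chosen after seeing the data. In that fit, which assumes that the lone sample varies as the young samples do, 100 probe sets were called. The median differences of the gene groups below in that sample were 2.46 for disease-associated genes, -1.06 for homeostatic genes, 1.36 for interferon genes and 0.70 for glycolysis genes.

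**Figure D1:**
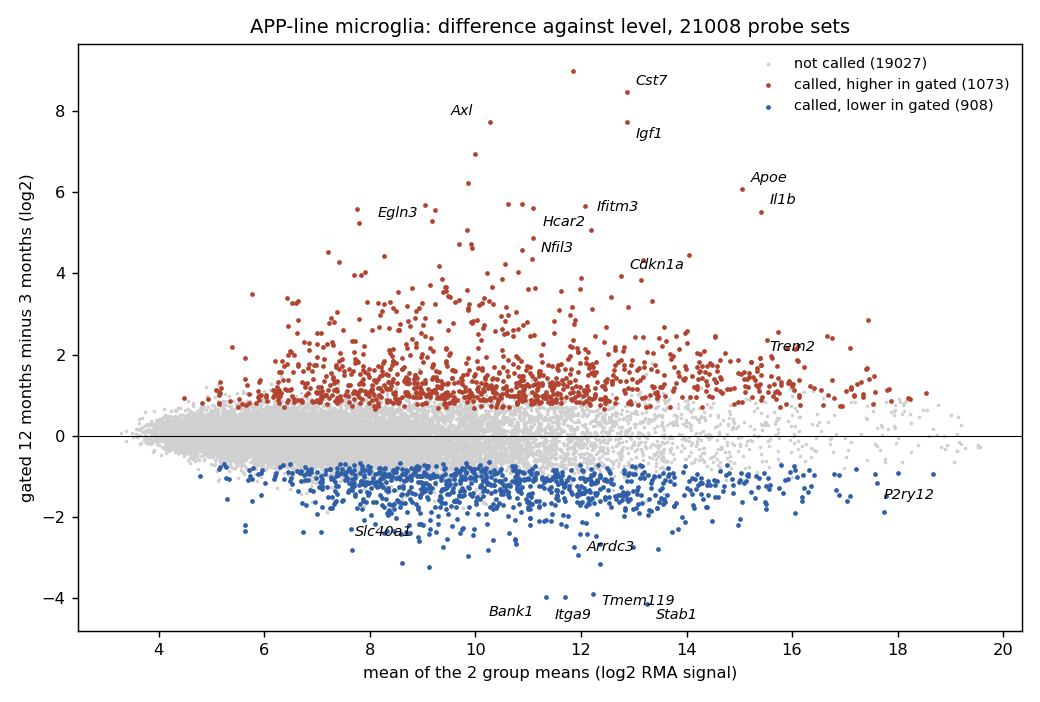
Each of the 21008 points is a probe set, placed by the mean of the 2 group means (x axis, log2 signal) and by the gated minus young difference (y axis, log2). Red marks the 1073 probe sets that rose and blue the 908 that fell; the red points reach farther from 0 than the blue ones.

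Among autosomal genes with a symbol and both groups above background, the 3 largest rises were those of Cst7, Igf1 and Apoe, all genes of disease-associated microglia. Of 35 measured genes of that list, 32 rose and none fell, with a median difference of 2.82 against -0.04 over all probe sets; at an unadjusted p under 0.05, 35 were higher and 0 were lower. The list was drawn up from the known plaque-associated state with earlier results of these data in view, so its direction is a description. The median level of its members was 9.25, 8.98 and 8.86 in the young samples and 14.68, 14.57, 14.18 and 14.26 in the gated samples. Every gated sample lay above every young one. The number that rose stayed between 29 and 34 as each array was left out and was 28 with the Y-linked covariate.

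Cst7 encodes cystatin F, an inhibitor of lysosomal cysteine proteases. It read 8.88, 8.98 and 8.02 in young and 16.99, 17.21, 17.32 and 16.88 in gated samples, a rise of 8.47 ± 0.26, or 355-fold (adjusted p = 5.74e-08). Igf1, a secreted growth factor, read 9.25, 8.92 and 8.86 in young and 16.39, 17.28, 16.54 and 16.74 in gated samples, and rose by 7.73 ± 0.24 (adjusted p = 5.74e-08). Both genes went from just above background to a high signal in all 4 gated samples. Apoe, which encodes the main apolipoprotein of the brain and is the strongest common genetic risk locus for late-onset Alzheimer disease, was well above background at both ages. It read 12.27, 11.59 and 12.15 in young and 17.90, 18.37, 17.89 and 18.19 in gated samples, a rise of 6.08 ± 0.23 (67.8-fold, adjusted p = 2.34e-07).

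Several members of the list came up from background. Axl, a TAM-family receptor for phosphatidylserine bound to its bridging ligand, read 6.87, 6.80 and 5.59 in young and 14.68, 13.97, 14.04 and 13.90 in gated samples. It was at least 70.9-fold higher in gated samples (adjusted p = 4.82e-07). Fabp5, an intracellular carrier of fatty acids, was at least 37.9-fold higher (adjusted p = 4.82e-07). Etl4 was at least 31.3-fold higher, and Itgax, the CD11c integrin chain, at least 14.8-fold. For each of these 4 genes all young samples were at or below 8.07 and all gated samples at or above 11.59.

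The receptor complex linked to this state rose less. Trem2 read 14.89, 14.29 and 14.14 in young and 16.16, 16.33, 16.69 and 16.24 in gated samples, a rise of 1.92 ± 0.24 (3.77-fold, adjusted p = 0.000639). Its adaptor Tyrobp read 16.74, 16.36 and 16.63 in young and 18.10, 18.37, 18.45 and 18.01 in gated samples, a rise of 1.66 ± 0.20 (adjusted p = 0.000613). Neither gene's groups overlapped. Csf1, a ligand of the CSF1 receptor, rose by 2.56 ± 0.26, Ccl6, a chemokine, by 4.32 ± 0.29 and Cd63, a tetraspanin of late endosomes, by 2.85 ± 0.24. Lpl, lipoprotein lipase, rose by 1.0 ± 0.21 (adjusted p = 0.0136), a call that was lost without young replicate 3 (adjusted p = 0.0792) and with the Y-linked covariate (adjusted p = 0.217).

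**Figure D2:**
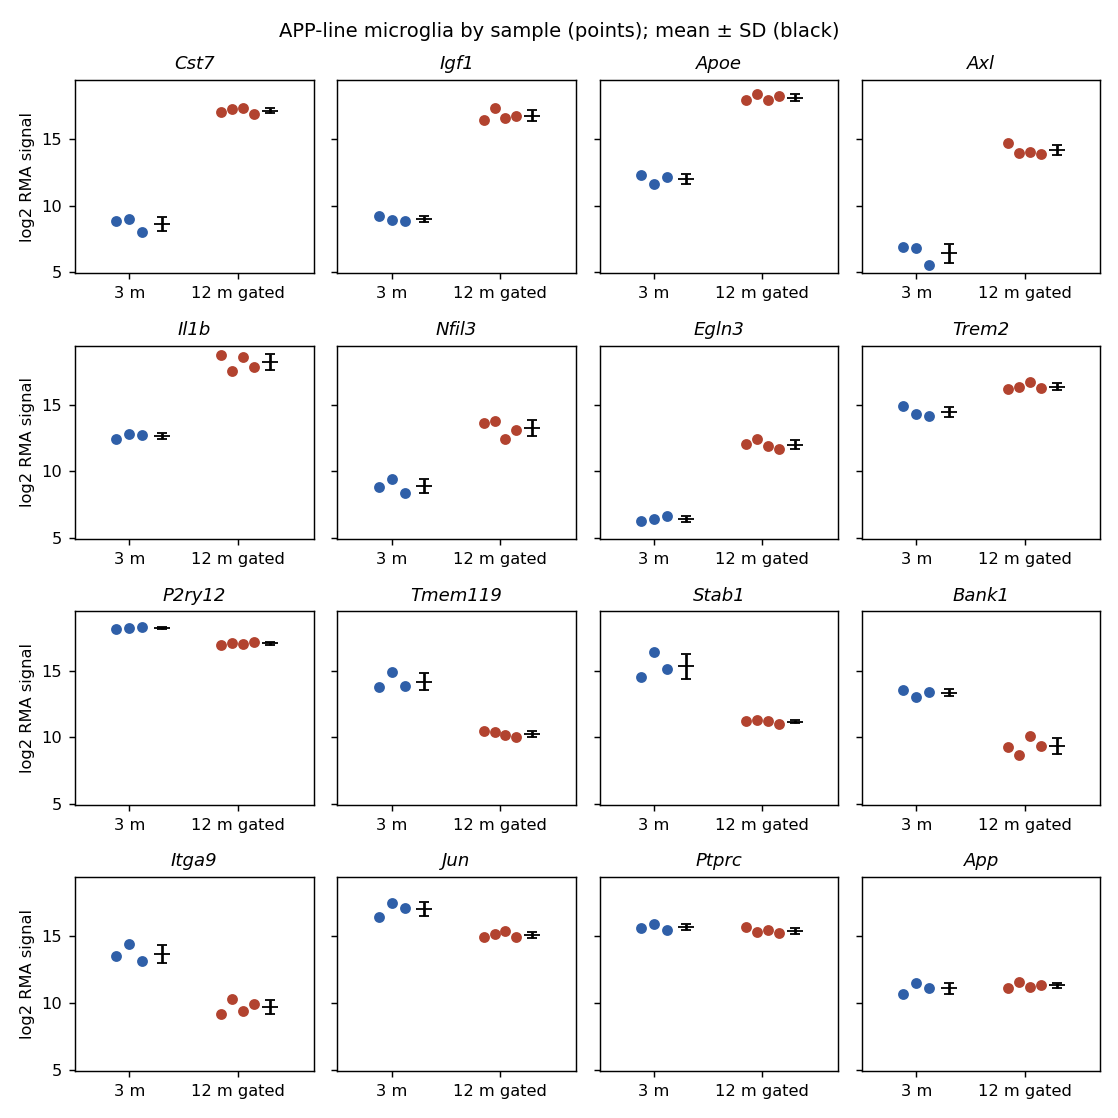
Log2 signal (y axis) of 16 genes in each of the 3 young and 4 gated samples, with 1 point per sample and the mean ± SD of each group. The groups are apart in 14 of the panels and overlap for Ptprc and App.

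Genes of resting microglia moved the other way. Of 26 measured homeostatic genes 17 fell and 1 rose, with a median difference of -1.14. Their median level was 15.29, 15.13 and 15.14 in the young samples and 13.53, 13.68, 13.51 and 13.48 in the gated samples. The gated samples thus lay about as close to each other as the young ones and below all of them. The number that fell was 15 to 17 as each array was left out and 9 with the Y-linked covariate, where the median was -1.07. The single rise, of Tgfbr2 (0.77 ± 0.21, adjusted p = 0.0464), the type II TGF-beta receptor, is named because it is the exception and was lost whichever array was left out.

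Tmem119, a membrane protein used to tell microglia from other macrophages, had the largest fall of the list. It read 13.73, 14.92 and 13.85 in young and 10.51, 10.38, 10.20 and 10 in gated samples, a difference of -3.89 ± 0.29 (14.9-fold lower, adjusted p = 2.21e-05). P2ry12, the ADP receptor that steers microglial processes, changed much less. It read 18.14, 18.16 and 18.25 in young and 16.93, 17.09, 16.99 and 17.10 in gated samples, a difference of -1.16 ± 0.18 (2.23-fold lower, adjusted p = 0.00227). Its groups were far apart relative to their spread, yet its signal stayed high, and with the Y-linked covariate its adjusted p was 0.0524. Both Tmem119 and P2ry12 were therefore lower but still above background in every gated sample.

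Other members fell by amounts between these. Crybb1, a crystallin gene of mature microglia, fell by 2.74 ± 0.24 on the log2 scale. Adgrg1, the adhesion receptor GPR56, differed by -2.09 ± 0.21 and Slco2b1, an organic anion transporter, by -1.75 ± 0.21. Cx3cr1, the fractalkine receptor, read 15.91, 15.21 and 15.93 in young and 14.28, 14.53, 14.58 and 14.85 in gated samples, and fell by 1.12 ± 0.24 on the log2 scale (adjusted p = 0.0145). Its call was lost without young replicate 3 (adjusted p = 0.0815). Csf1r, the receptor on which microglial survival depends, differed by -0.91 ± 0.18 (adjusted p = 0.00988), with an adjusted p of 0.0829 under the Y-linked covariate.

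Among autosomal genes above background in both groups, the largest falls were not confined to that list. Stab1, a scavenger receptor of perivascular and other macrophages, read 14.51, 16.35 and 15.08 in young and 11.22, 11.27, 11.22 and 10.97 in gated samples, a difference of -4.14 ± 0.36 (17.7-fold lower, adjusted p = 5.86e-05). Bank1, a signalling scaffold best known in B cells, read 13.55, 13.04 and 13.40 in young and 9.28, 8.69, 10.11 and 9.32 in gated samples, a difference of -3.98 ± 0.31 (adjusted p = 2.56e-05). Itga9, an integrin alpha chain, read 13.50, 14.46 and 13.13 in young and 9.18, 10.28, 9.45 and 9.96 in gated samples, a difference of -3.98 ± 0.35 (adjusted p = 6.18e-05). All 3 fell by over 3 on the log2 scale. Groups without overlap were a condition of this ranking. Tm6sf1, Fam71a, Arrdc3, Nrip1 and Nos1ap fell by between 3.15 and 2.73 on the log2 scale. Il7r, the interleukin 7 receptor, was at least 6.81-fold lower, having read 10.65, 11.48 and 10.09 in young samples and background in gated ones. Among genes above background in both groups, the largest rises outside the disease-associated list were those of Fabp3, Ifitm3, Hcar2, Il1b, Ifi204, Myo1e and Ifi207, between 5.70 and 4.58. Hcar2, a receptor for hydroxybutyrate and niacin, rose by 5.60 ± 0.31, and Myo1e, a class I myosin at actin-rich membranes, by 4.87 ± 0.22.

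Transcription factors of microglia changed in both directions. Of 28 measured, 4 rose and 9 fell; their median was -0.37, and the number that fell was 5 without young replicate 3 and 3 with the Y-linked covariate. Nfil3, a basic leucine zipper repressor, read 8.87, 9.44 and 8.37 in young and 13.65, 13.76, 12.46 and 13.13 in gated samples, a rise of 4.36 ± 0.35 (20.5-fold, adjusted p = 3.12e-05). Bhlhe40, a repressor that controls cytokine genes and macrophage proliferation, was at least 3.69-fold higher. Maf, a factor of tissue macrophages, was at least 1.73-fold lower, with gated samples between 6.80 and 6.94 and the young between 8.08 and 9.37. Hif1a, the oxygen-regulated factor, is described with its target genes.

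Among receptors for phagocytosis and for immune complexes, 7 of 30 rose and 7 fell, with a median of -0.04 that was above 0 with the dim filter, with array weights and without young replicate 1 or gated replicate 3. The number that fell was 3 without young replicate 3 and 4 without young replicate 2, gated replicate 1 or gated replicate 3. Besides Axl and the TREM2 complex, Fcgr4, an activating receptor for immunoglobulin G, rose by 2.78 ± 0.26 and Cd14, the co-receptor for lipopolysaccharide, by 2.44 ± 0.22. Cd33, a sialic-acid receptor, read 13.20, 12.64 and 12.85 in young and 11.37, 11.51, 11.33 and 11.22 in gated samples, a fall of 1.54 ± 0.20 on the log2 scale (adjusted p = 0.00096). Mrc1, the mannose receptor, read 11.38, 11.67 and 11.78 in young and 9.27, 9.11, 8.39 and 9.40 in gated samples, a difference of -2.57 ± 0.26. In both genes every gated sample lay below every young one.

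Of 26 Toll-like, NOD-like and inflammasome genes, 6 rose and 3 fell; their median was -0.08, which was 0.05 without young replicate 2. The number that rose was 2 without young replicate 2 and 3 without young replicate 3, and the number that fell was 1 without young replicate 1 or 3 or gated replicate 1, 3 or 4. Tlr2, which senses bacterial lipoproteins, rose from between 10.29 and 10.82 to between 12.93 and 13.87, a difference of 2.75 ± 0.27 (adjusted p = 0.00013). Tlr5, the flagellin receptor, was at least 1.92-fold lower. Tgfbr1, the signalling chain of the TGF-beta receptor, read 15.02, 14.72 and 15.20 in young and 12.84, 13.78, 13.03 and 13.48 in gated samples, a fall of 1.7 ± 0.26 on the log2 scale (adjusted p = 0.00219). Of 25 TGF-beta signalling genes 3 fell and 2 rose, with a median of -0.23; 1 fell without young replicate 3, and 0 rose in 6 of the 7 fits that left out an array, all but the one without gated replicate 4. Smad3, a transducer of that receptor, differed by -1.01 ± 0.23, a call lost without young replicate 2 or 3. Entpd1, the CD39 ectoenzyme that degrades extracellular ATP, differed by -1.38 ± 0.22, and P2ry13, a second ADP receptor, by -1.99 ± 0.33. They were among 4 falls in 12 purinergic genes, of which 1 rose, with a median of -0.34; 1 fell with the Y-linked covariate, and 0 rose in all leave-out fits but the one without gated replicate 4.

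Among 18 integrins 2 rose and 3 fell, with a median of -0.16; 1 fell without young replicate 1 or any of the gated replicates. Itga5, the fibronectin receptor chain, was at least 4.55-fold higher in gated samples. Itgam, which encodes the CD11b used in the sort, read 15.33, 15.62 and 14.43 in young and 14.06, 14.16, 13.76 and 14.10 in gated samples. Its difference of -1.11 ± 0.28 was called (adjusted p = 0.0317), but the call was lost in 6 of the 7 fits that left out an array. Of 28 chemokine and cytokine receptors 4 rose and 6 fell, with a median of -0.14, which was 0.01 without young replicate 2. The number that rose was 1 without gated replicate 1 or 2 and 2 without young replicate 3. Cxcr4, the receptor of CXCL12, was at least 8.04-fold higher, with young samples between 7.12 and 7.51 and gated samples between 10.35 and 11.64. Il6ra fell by 2.28 ± 0.29 and Il10ra by 1.30 ± 0.24 on the log2 scale; they encode the ligand-binding chains for interleukin 6 and interleukin 10.

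Interferon-stimulated genes formed another large group that rose. Of 39 measured 25 rose and none fell, with a median difference of 1.5, and 33 were higher and 0 lower at an unadjusted p under 0.05. Their median level was 7.28, 7.67 and 7.67 in the young samples and 9.56, 9.69, 9.75 and 9.16 in the gated samples. All gated samples were above all young ones, and 11 members stayed at background in both groups. The number that rose was 21 to 25 as each array was left out and 16 with the Y-linked covariate. Several genes of the p200 family, which encode nuclear proteins that bind DNA, were among those that rose. Ifi204 read 9.92, 9.91 and 9.12 in young and 14.77, 14.96, 14.50 and 14.63 in gated samples, a rise of 5.07 ± 0.24 (33.5-fold, adjusted p = 9.14e-07). Ifi211 was at least 20.9-fold higher (adjusted p = 2.34e-07), and Ifi207 rose by 4.58 ± 0.31.

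Ifitm3, a membrane protein that restricts virus entry and also binds gamma-secretase, read 9.75, 9.12 and 8.87 in young and 15.19, 15.10, 14.66 and 14.72 in gated samples. It rose by 5.67 ± 0.25 (50.9-fold, adjusted p = 5.76e-07). Its paralog Ifitm2 read 8.53, 8.46 and 8.5 in young and 11.76, 11.98, 11.42 and 11.88 in gated samples, a rise of 3.26 ± 0.20 (adjusted p = 5.48e-06). These are close paralogs, and reading of one by the probes of the other was not tested.

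Many of these genes hold, near their start, the letters that interferon-activated factors recognise. The core of the interferon-stimulated response element, GAAA, 2 bases of any kind and GAAA again, was searched on both strands in RefSeq promoters (GRCm38.p6, 250 bases before to 50 after each gene start). It was present in 3.44% of 32851 promoters, in 3.99% of 27025 genes (any promoter of the gene) and, counted by gene, in 19 of the 29 list members with a promoter there, in 12 of 18 that rose and in 7 of 11 that were not called. A match is a description and not a bound site. Windows from 3 genes that rose are shown with the match in capitals, because they show the element close to the start of Ifi211 and Ifitm2 and farther from that of Slfn5. The matches begin 37, 46 and 155 bases before the gene start. Ifi211 lies at chr1:173913039-173913118 on the minus strand, Ifitm2 at chr7:140955963-140956042 on the minus strand and Slfn5 at chr11:82951912-82951991 on the plus strand; Slfn5, a Schlafen gene that was at least 15.6-fold higher, was chosen after its values were seen.
Ifi211: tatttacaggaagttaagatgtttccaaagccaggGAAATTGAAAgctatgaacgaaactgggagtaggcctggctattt
Ifitm2: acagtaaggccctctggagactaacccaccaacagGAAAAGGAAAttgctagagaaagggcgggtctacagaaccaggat
Slfn5: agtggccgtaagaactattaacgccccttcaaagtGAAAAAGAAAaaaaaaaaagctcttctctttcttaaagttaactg

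Antigen presentation genes, many of them inducible by interferon, rose as well. Of 18 class I and peptide-loading genes 9 rose and none fell (1 was lower at an unadjusted p under 0.05), with a median of 0.62. The number that rose was 7 without young replicate 3 and 6 with the Y-linked covariate, and 1 fell without gated replicate 4. H2-D1, a classical class I heavy chain, read 10.76, 11.05 and 11.34 in young and 13.82, 13.36, 13.22 and 13.59 in gated samples, a rise of 2.45 ± 0.22 (5.45-fold, adjusted p = 8.16e-05). H2-K1, the other classical chain, rose by 1.88 ± 0.23 and Psmb8, an immunoproteasome subunit, by 1.82 ± 0.26. The class I genes share much sequence, and their probe sets may read one another's transcripts. Of 15 class II genes 6 rose and none fell (1 lower at an unadjusted p under 0.05), with a median of 0.72. The number that rose was 4 without young replicate 2 or 3 or gated replicate 1, 3 or 4. H2-Ab1 was at least 4.66-fold higher and H2-Ob, which tunes peptide loading, rose by 2.14 ± 0.26. H2-Eb1 read 9.02, 8.83 and 8.51 in young and 9.20, 9.31, 9.74 and 10.26 in gated samples; its difference of 0.84 ± 0.27 was not called (adjusted p = 0.089), though its groups did not overlap. H2-Aa rose by 1.29 ± 0.30, a call lost without young replicate 2 or 3 or gated replicate 1, 3 or 4.

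**Figure D3:**
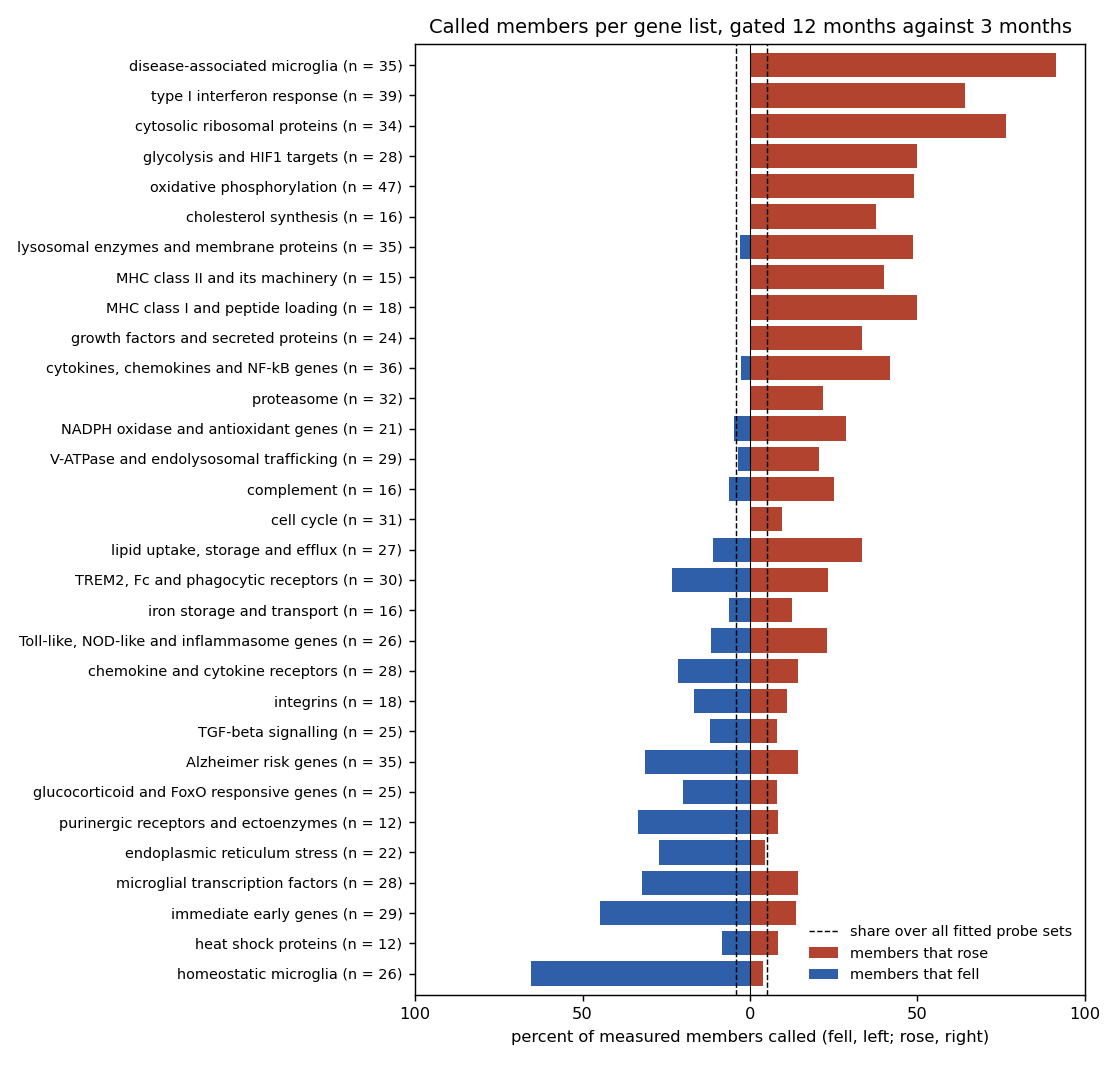
Percent of measured members (x axis) that rose and that fell in gated samples, for the 31 pathway lists. Dashed lines give the share over all fitted probe sets, 5.11% higher and 4.32% lower, which includes 13088 at background in both groups. Of the 6687 above background in both, 1411 were called in either direction. Disease-associated, ribosomal and interferon genes have the largest shares that rose and homeostatic genes the largest that fell.

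Cytokine and chemokine genes that were called were higher in gated samples, with the exception of Il18. Of 36 genes for cytokines, chemokines and the NF-kB response 15 rose and 1 fell, with a median of 0.57. Il18, an interleukin 1 relative, is named as the exception; its difference was -0.78 ± 0.21 (adjusted p = 0.0429). Il1b, the precursor of interleukin 1 beta, read 12.41, 12.80 and 12.72 in young and 18.75, 17.53, 18.59 and 17.80 in gated samples, a rise of 5.52 ± 0.30 (46.0-fold, adjusted p = 2.74e-06). Ptgs2, the inducible cyclooxygenase, was at least 16.4-fold higher, with young samples from 7.15 to 8.15 and gated samples from 11.50 to 12.96. Cxcl16, a membrane-bound chemokine and scavenger receptor, rose by 2.45 ± 0.19. Each of these genes was higher in all 4 gated samples than in any young sample.

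Of 24 growth factors and secreted proteins 8 rose and none fell (0 lower at an unadjusted p under 0.05), with a median of 0.60. Besides Igf1 and Csf1, Vegfa, the vascular endothelial growth factor, read 11.29, 11.26 and 10.86 in young and 14.57, 13.17, 13.67 and 13.89 in gated samples, a rise of 2.69 ± 0.30 (adjusted p = 0.000341). Dkk2, a secreted Wnt modulator, read 5.71, 5.50 and 5.58 in young and 8.18, 8.02, 8.18 and 7.25 in gated samples. It rose from background to a level close to it, so no fold is given. Of 16 complement genes 4 rose and 1 fell, with a median of 0.29. C1qc, a chain of the C1q initiator, rose by 0.99 ± 0.21 (adjusted p = 0.0133), a call lost without young replicate 2. Without that sample 1 complement gene rose, and 2 rose without young replicate 1 or gated replicate 1 or 4; 0 fell unless the array left out was young replicate 3.

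Genes of glycolysis and of the response to the oxygen-regulated factor HIF1 rose. HIF1 is held low by prolyl hydroxylases of the EGLN family in well-oxygenated cells and drives glycolytic enzymes and glucose uptake when stabilised; Egln3 is itself one of its targets. Of 28 measured genes 14 rose and none fell (2 were lower at an unadjusted p under 0.05), with a median of 0.95. The median level was 9.02, 9.44 and 9.37 in the young samples and 10.69, 11.15, 10.51 and 10.32 in the gated samples. The number that rose was 13 or 14 whichever array was left out and 10 with the Y-linked covariate, where the median was 0.61.

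Hif1a read 12.43, 11.80 and 12.46 in young and 14.81, 15.28, 14.60 and 14.97 in gated samples, a rise of 2.69 ± 0.24 (6.43-fold, adjusted p = 7.46e-05). Egln3 read 6.26, 6.41 and 6.68 in young and 12.03, 12.46, 11.92 and 11.65 in gated samples and was at least 16.2-fold higher (adjusted p = 4.82e-07). It went from background in each young sample to a clear signal in each gated one. Tpi1, the triosephosphate isomerase of glycolysis, read 8.43, 9.5 and 9.63 in young and 12.75, 12.91, 12.83 and 12.73 in gated samples, a rise of 3.62 ± 0.28 (adjusted p = 2.64e-05). Ero1a, an oxidase of the endoplasmic reticulum that hypoxia induces, was at least 4.64-fold higher.

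The hypoxia response element has the core ACGTG or GCGTG, which was searched on both strands in the same RefSeq promoters. At 5 letters it is common: 43.8% of 32851 promoters and 46.7% of genes hold it, and so did 27 of 28 list members, 13 of 14 that rose and 14 of 14 that were not called. Tpi1, described above, was the member that rose without a match. Windows were taken only from promoters with a match. Those of 3 genes that rose are shown to place the element in the promoters of the factor and of a pair of its targets. Matches are in capitals (CACGT is the core read on the other strand). The match nearest the gene start begins 229 bases before it in Egln3, 63 in Ero1a and 70 in Hif1a. The windows are chr12:54204064-54204124 on the minus strand, chr14:45318596-45318670 on the minus strand and chr12:73907762-73907836 on the plus strand.
Egln3: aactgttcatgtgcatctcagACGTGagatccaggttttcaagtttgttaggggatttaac
Ero1a: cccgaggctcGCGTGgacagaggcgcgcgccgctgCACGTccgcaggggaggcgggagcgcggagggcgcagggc
Hif1a: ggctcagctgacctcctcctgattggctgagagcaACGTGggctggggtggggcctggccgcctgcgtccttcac

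Genes of the respiratory chain and of the ribosome rose in many members. Of 47 nuclear genes of oxidative phosphorylation 23 rose and none fell (0 lower at an unadjusted p under 0.05), with a median of 0.87. Ndufb10, a complex I subunit, read 9.73, 9.27 and 9.42 in young and 10.85, 10.87, 10.96 and 10.84 in gated samples, a rise of 1.41 ± 0.19 (adjusted p = 0.00112). Cox7a2 and Cox6b1, subunits of cytochrome c oxidase, rose by 1.85 ± 0.27 and 1.74 ± 0.27. Of 34 cytosolic ribosomal protein genes 26 rose and none fell (0 lower at an unadjusted p under 0.05), with a median of 1.25. Rpl23 read 12.98, 11.98 and 13.09 in young and 14.48, 15.01, 14.47 and 14.83 in gated samples, a rise of 2.01 ± 0.29 (adjusted p = 0.00159). Ribosomal protein genes have many processed pseudogenes, which their probe sets may also read.

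The counts of these calls depended on single arrays and on the covariate. The median level of the respiratory genes was 11.89, 10.92 and 11.70 in young replicates 1 to 3, and that of the ribosomal genes 16.03, 15.38 and 15.76; young replicate 2 was lowest in both. The gated samples lay between 12.39 and 12.64 and between 16.70 and 16.93. Respiratory genes that rose numbered 13 without young replicate 2 or 3, 14 without gated replicate 3, and 15 without gated replicate 2 or 4. Ribosomal genes that rose numbered 19 without young replicate 2. With the Y-linked covariate 4 respiratory and 3 ribosomal genes rose, while their medians were 0.91 and 1.24. In gated replicate 4 alone, against the young samples, the medians were 0.86 and 1.09. Of 32 proteasome genes 7 (21.9%) rose and none fell (0 lower at an unadjusted p under 0.05), with a median of 0.50. All 32 were above background in at least 1 group. Among probe sets above background in both groups, 1411 of 6687 were called in either direction. Psmb6, a catalytic subunit, rose by 2.16 ± 0.22 and Psme1, an activator subunit, by 1.81 ± 0.24.

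**Figure D4:**
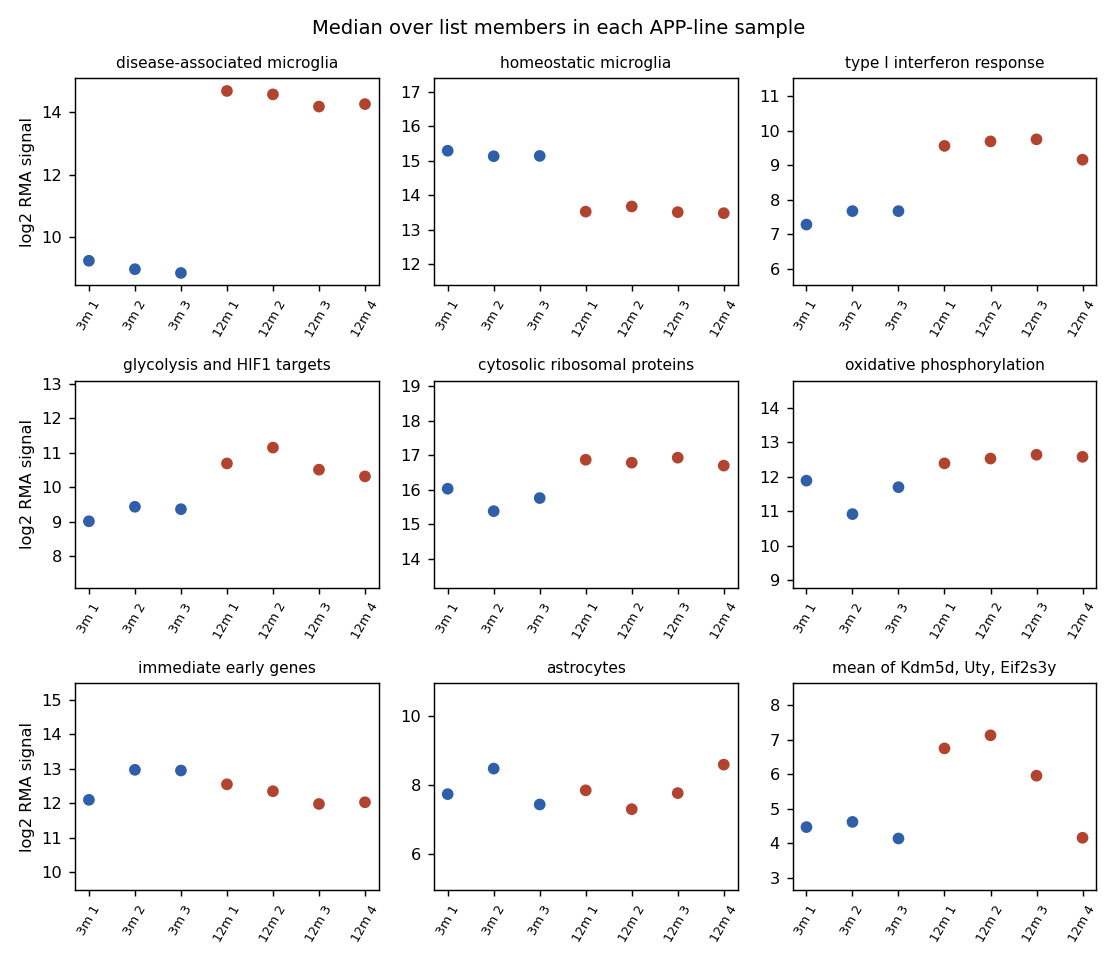
Median log2 signal (y axis, with its own range in each panel) of the members of 8 gene lists, and the mean of Kdm5d, Uty and Eif2s3y, in each of the 7 samples. Disease-associated, interferon, glycolysis and ribosomal genes are higher in all gated samples, homeostatic genes are lower, and gated replicate 4 lies with the young samples in the Y-linked panel.

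Of 27 genes for lipid uptake, storage and efflux 9 rose and 3 fell; their median was 0.01, and 1 fell without young replicate 2. The 3 that fell, Abca1, Lrp1 and Fads1, are named after their values were seen, at -1.56 ± 0.24, -1.09 ± 0.22 and -0.92 ± 0.23; they encode a cholesterol exporter, a lipoprotein receptor and a fatty acid desaturase. The median was below 0 without young replicate 1 or gated replicate 1 or 3 and with the Y-linked covariate. Fabp3, a fatty acid carrier best known from heart muscle, read 7.87, 8.07 and 8.17 in young and 13.11, 14.24, 13.71 and 13.88 in gated samples, a rise of 5.70 ± 0.26 (51.9-fold, adjusted p = 7.39e-07). Plin2, which coats lipid droplets, read 10, 10.17 and 10.34 in young and 14.06, 14.21, 13.59 and 13.33 in gated samples, a rise of 3.63 ± 0.25 (adjusted p = 1.1e-05). Npc2, which hands cholesterol out of the lysosome, rose by 2.85 ± 0.22. These 3 genes had no overlap between groups.

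Of 16 cholesterol synthesis genes 6 rose and none fell (0 lower at an unadjusted p under 0.05), with a median of 0.87. Sc5d, a late desaturase of the pathway, read 10.28, 9.39 and 9.34 in young and 11.39, 11.28, 11.52 and 11.25 in gated samples, a rise of 1.69 ± 0.25 (adjusted p = 0.00195). Fdps, farnesyl diphosphate synthase, was at least 2.20-fold higher, Pmvk, phosphomevalonate kinase, at least 1.34-fold and Cyp51, lanosterol demethylase, at least 1.16-fold. These 3 were at background in the young samples and not far above it in the gated ones. With the Y-linked covariate 3 members rose, and Cyp51 (adjusted p = 0.0547) and Pmvk (0.105) were not called.

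Lysosomal genes rose widely. Of 35 measured 17 rose and 1 fell, with a median of 0.73; 8 rose with the Y-linked covariate. Hexa, the alpha chain of beta-hexosaminidase, read 14.63, 14.66 and 14.70 in young and 16.42, 16.61, 16.63 and 16.71 in gated samples, a rise of 1.93 ± 0.18 (adjusted p = 9.16e-05). The young samples spanned 0.04 and the gated samples 0.12 as SD. The E-box of the CLEAR network, CACGTG, was present in 9 of 31 members with a RefSeq promoter and in 7.15% of all promoters (8.09% of genes), in 4 of 15 that rose and 5 of 15 not called. Of 29 genes for the vacuolar proton pump and endolysosomal traffic 6 rose and 1 fell, with a median of 0.38. Atp6v0e and Atp6v1c1, subunits of the pump, rose by 1.7 ± 0.21 and 1.43 ± 0.20. Rab7b, a small GTPase of endosomal transport, was at least 5.61-fold higher, and Sort1, a sorting receptor for progranulin, differed by -1.55 ± 0.22.

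Of 16 iron genes 2 rose and 1 fell, with a median of -0.06 that was 0.29 with the dim filter; 2 fell without young replicate 1. Slc40a1, the iron exporter ferroportin, read 10.53, 9.70 and 10.08 in young and 7.61, 8.28, 7.86 and 7.9 in gated samples, a difference of -2.19 ± 0.25 (4.57-fold lower, adjusted p = 0.000348). The importer Slc11a1 differed in the other direction, by 0.97 ± 0.19, with an adjusted p of 0.178 under the Y-linked covariate. Of 21 NADPH oxidase and antioxidant genes 6 rose and 1 fell, with a median of 0.47. None fell when any young replicate, gated replicate 3 or gated replicate 4 was left out. Slc7a11, the cystine importer that feeds glutathione synthesis, was at least 3.43-fold higher and Sod2, mitochondrial superoxide dismutase, at least 3.16-fold. Gpx4, which reduces lipid peroxides, and Cyba, a subunit of the oxidase, each rose by 1.41 (SE 0.24 and 0.26), and neither was called with the Y-linked covariate.

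Immediate early genes, which respond within minutes to stimulation and to the handling of tissue, were mostly lower in gated samples. Of 29 measured 13 fell and 4 rose, with a median of -0.56. The median level was 12.10, 12.97 and 12.95 in the young samples and 12.55, 12.35, 11.98 and 12.03 in the gated samples, so that the groups overlapped through young replicate 1. The number that fell was 8 without young replicate 2 or 3 or gated replicate 1 or 3, and 8 with the Y-linked covariate; 2 rose without young replicate 3. Jun, a subunit of the AP-1 factor, read 16.44, 17.47 and 17.13 in young and 14.94, 15.15, 15.37 and 14.96 in gated samples, a difference of -1.91 ± 0.26 (3.75-fold lower, adjusted p = 0.00112). Atf3, a stress-induced repressor, differed by -1.68 ± 0.22 and Rhob, an immediate early GTPase, by -1.38 ± 0.19. Gadd45b, a growth arrest gene induced by NF-kB, went the other way, with a rise of 1.55 ± 0.20.

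The letters CC and GG set 6 bases apart, a loose form of the serum response element, were in 73.3% of promoters (75.1% of genes) and 22 of 25 matched immediate early genes, and the cAMP element TGACGTCA was in 1.79% (2.03% of genes) and 3 of 25. Of 22 endoplasmic reticulum stress genes 6 fell and 1 rose, with a median of -0.36, and 3 fell without young replicate 2 or 3 or gated replicate 1, 3 or 4. Ddit3, the pro-apoptotic factor CHOP, read 13.72, 14.80 and 14.20 in young and 12.45, 12.19, 12.49 and 12.03 in gated samples, a difference of -1.95 ± 0.26 (adjusted p = 0.00112). Sdf2l1, a cofactor of the chaperone BiP, rose by 1.40 ± 0.22. Of 12 heat shock genes 1 rose and 1 fell, with a median of -0.57: Dnajb4 differed by -1.44 ± 0.27 and Hspe1 by 0.96 ± 0.26, the latter lost in 6 of the 7 fits that left out an array; 3 fell without young replicate 3.

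Of 25 genes that respond to glucocorticoids or FoxO factors 5 fell and 2 rose, with a median of -0.31; 2 fell without young replicate 2 or gated replicate 1 or 3, 3 without young replicate 3 or gated replicate 4, and 1 rose without young replicate 3. Cdkn1a, the cell cycle inhibitor p21, read 10.56, 11.41 and 10.38 in young and 14.92, 14.91, 14.95 and 14.12 in gated samples, a rise of 3.94 ± 0.30 (15.4-fold, adjusted p = 2.42e-05). Arrdc3, an arrestin-domain protein, differed by -2.92 ± 0.26, and its relative Txnip, which restrains glucose uptake, by -1.88 ± 0.24. Of 31 cell cycle genes 3 rose and none fell (1 lower at an unadjusted p under 0.05), with a median of 0.25, and 26 were at background in both groups; 1 rose without young replicate 2 or 3 or gated replicate 1 or 2. Cdk1, the mitotic kinase, read 4.94, 4.47 and 4.64 in young and 7.01, 6.45, 6.39 and 6.51 in gated samples, all under background, so no fold is given. Mki67, a proliferation marker that was also called, was at background in both groups as well. Its call was lost in 6 of the 7 fits that left out an array, and that of Ccnb2 in 5.

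Genes named at Alzheimer risk loci moved in both directions. Of 35 measured 11 fell and 5 rose, with a median of -0.25, and 7 fell without young replicate 2. Apoe and Trem2 were among those that rose. Tspan14, a tetraspanin that regulates the protease ADAM10, read 14.36, 14.45 and 14.27 in young and 12.56, 13.11, 12.89 and 12.65 in gated samples, a difference of -1.56 ± 0.20 (2.94-fold lower, adjusted p = 0.000875). Cd33, given above, fell by a similar amount. Clu, clusterin, read 12.76, 13.13 and 11.99 in young and 10.32, 9.62, 11.62 and 11.19 in gated samples, a difference of -1.94 ± 0.45 (adjusted p = 0.021). Clu is also an astrocyte marker, and its call was lost without young replicate 1 or 2 or gated replicate 1.

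Markers of other cells were checked as lists. Of 12 markers of border and perivascular macrophages 4 fell (Stab1, Mrc1, Cbr2 and Cd209a) and none rose (1 higher at an unadjusted p under 0.05), with a median of -0.73; their summed log2 signal was 103.8 to 107.7 in young and 91.9 to 94.2 in gated samples. Cbr2, a carbonyl reductase, was at least 4.47-fold lower. The part of border macrophages in the falls of Stab1 and Mrc1 was not tested. Of 10 astrocyte markers 5 fell and 1 rose, with a median of -1.07 and summed signals of 87.2 to 97.0 in young and 76.4 to 86.7 in gated samples. Slc1a2, the glial glutamate transporter, read 11.76, 12.63 and 11.74 in young and 9.41, 8.83, 10.90 and 10.91 in gated samples. Gfap was the marker that rose, by 1.72 to 2.44 as each array was left out. Its call was lost without young replicate 3 or gated replicate 1. Only 1 astrocyte marker fell without young replicate 2 or gated replicate 1. With the Y-linked covariate 0 fell and 1 rose, Gfap (limma adjusted p = 0.0176). Of 11 neuronal markers 1 fell, Camk2a (-2.29 ± 0.48, adjusted p = 0.0135), a call lost without young replicate 2 or 3. Of 10 oligodendrocyte markers 0 were called by limma, with 0 higher and 1 lower at an unadjusted p under 0.05.

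Blood leukocyte markers were mostly at background. Of 9 monocyte markers 8 were at background in both groups, and the single call, Fn1, read 5.39, 5.48 and 5.38 in young and 7.69, 8.07, 7.55 and 5.75 in gated samples, at background in both. Of 10 neutrophil markers 8 were at background in both groups and 2 fell, S100a8 and Ngp, both at background by their group means; 5 fell without young replicate 1 and 1 without young replicate 2 or 3 or gated replicate 3 or 4. Of 10 dendritic cell markers 7 were at background in both groups, 1 fell (Cd209a, at background in both groups, its call lost in 5 of the 7 fits that left out an array) and 0 rose by limma, with 0 higher at an unadjusted p under 0.05. Of 12 T and NK cell markers 1 rose (Ccl5, at background in both groups) and 1 fell (Il7r), and of 6 B cell markers 1 rose (Cd22, at background in both groups). Of 12 endothelial and pericyte markers 1 rose (Flt1, at least 2.65-fold higher) and 1 fell (Pecam1). Over the 7 fits that left out an array, the calls of Fn1 and Ccl5 were lost in 6, those of Pecam1 and Cd209a in 5, that of Ngp in 4 and that of Cd22 in 1.

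The TAU line offers the nearest comparison, since its older cells were also Clec7a-gated and its young cells were not, and the lines share no sample. The older ages differ, however (12 against 9 months), so transgene and older age differ together between the lines and cannot be told apart. The changes were compared with an interaction term in a fit of all 23 samples. In that fit 2678 probe sets (12.7%) were called in the APP line and 2959 (14.1%) in the TAU line, where 1446 (6.88%) rose and 1513 (7.2%) fell. Of these, 1775 were called in both, 66.3% of the APP calls and 60% of the TAU calls, and 1772 of them in the same direction. The changes of the lines differed in 57 probe sets, 0.271% of 21008, of which 39 (0.186%) were higher and 18 (0.0857%) lower in the APP line. None of the 26 homeostatic genes and 1 of the 39 interferon genes was among them. The median difference of homeostatic genes was -1.14 in the APP line and -1.05 in the TAU line, and that of interferon genes 1.5 and 1.65. The median SE of a difference between the lines was 0.329, so small differences between the lines could have been missed.

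**Figure D5:**
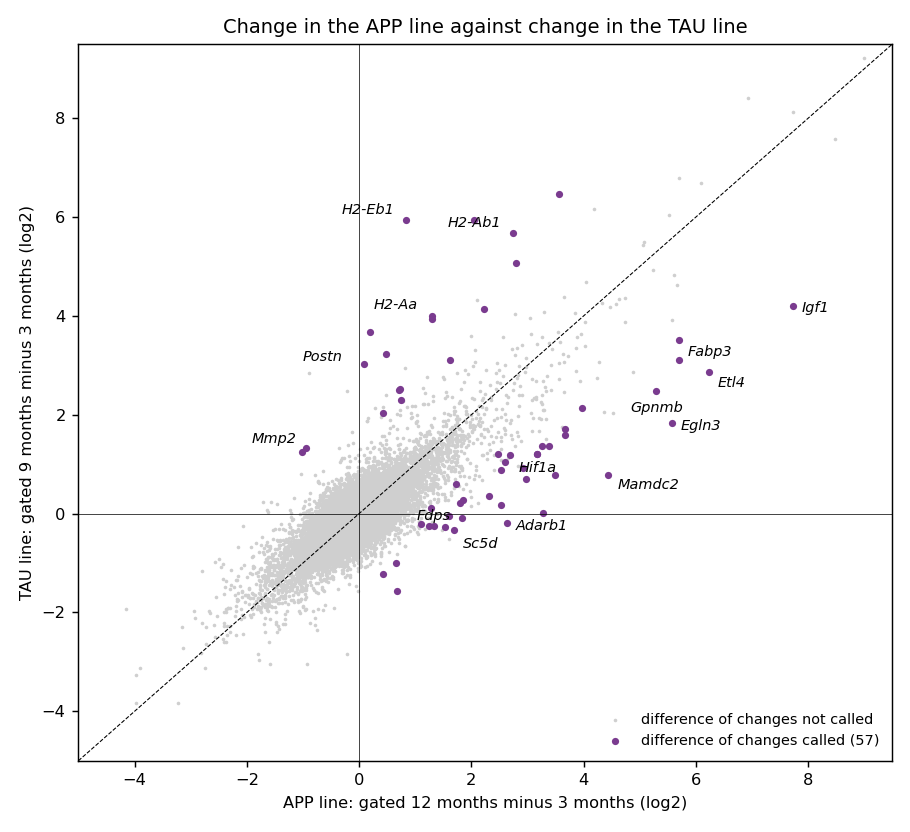
Change from young to gated samples in the APP line (x axis, log2) against the change in the TAU line (y axis, log2) for each probe set fitted. The 57 probe sets in purple are those whose changes differed between the lines, with Igf1 and Egln3 rising more in APP and H2-Eb1 more in TAU.

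Genes whose change was higher in the APP line came from several groups described above. The TAU line's Igf1 rose from 8.87 ± 0.11 (SD, n = 4) to 13.07 ± 0.74, and the APP line's rise exceeded it by 3.53 ± 0.38 (limma interaction, adjusted p = 9.99e-06). Egln3 rose from 6.27 ± 0.35 to 8.10 ± 0.50 in TAU, a difference between the lines of 3.73 ± 0.32 (adjusted p = 9.1e-07), and Hif1a rose by 1.18 ± 0.21 in TAU, a difference of 1.51 ± 0.31 (adjusted p = 0.0294). Both the factor and its target thus rose in both lines and more so in APP. Fabp3 (2.59) and Wfdc17 (2.07), a secreted protease inhibitor of macrophages, also rose in both lines and more so in APP. Adarb1, an RNA-editing deaminase, changed by -0.18 ± 0.30 in TAU (limma adjusted p = 0.763), and the lines differed by 2.81. Of the 28 glycolysis and HIF1 genes 4 had a higher change in the APP line, and of 35 disease-associated genes 6.

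Cholesterol synthesis differed in 4 of its 16 genes, all higher in APP. Its list median was 0.87 in the APP line and -0.07 in TAU, where 1 gene rose and 1 fell. Fdps changed by 0.21 ± 0.18 in TAU (adjusted p = 0.516), at background in both TAU groups, and the lines differed by 1.59 ± 0.26 (adjusted p = 0.00274). Sc5d changed by -0.34 ± 0.30 in TAU, and the lines differed by 2.03 ± 0.44 (adjusted p = 0.0482), a call lost whichever array but young replicate 1 of the APP line or young replicate 4 of the TAU line was left out. The call for Wfdc17 was lost in 11 of those fits.

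Of the 15 class II genes, 4 had a lower change in the APP line and none a higher one, while the list medians were 0.72 in APP and 0.77 in TAU. H2-Eb1, not called in APP, rose in TAU from 8.21 ± 0.54 (SD, n = 4) to 14.16 ± 0.19, and the changes differed by -5.11 ± 0.51 (adjusted p = 3.05e-06). H2-Ab1 rose in TAU from 7.82 ± 0.22 to 13.51 ± 0.32, against a gated APP mean of 10.38, a difference between the lines of -2.95 ± 0.42 (adjusted p = 0.000554). H2-Aa differed by -2.70 ± 0.47 (adjusted p = 0.00591). Ifi30, a lysosomal thiol reductase for antigen processing, differed by -1.79 ± 0.34, Postn, a matrix protein, by -2.93 and Mmp2, a gelatinase, by -2.27.

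The WT line gives the change from 3 to 12 months without a gate named. In it 8 probe sets (0.0381%) rose and 0 fell by limma, with 974 higher and 910 lower at an unadjusted p under 0.05. The APP and WT changes differed in 853 probe sets (4.06%), 626 (2.98%) higher and 227 (1.08%) lower in the APP line. That count was 610 without young APP replicate 2, 1202 without aged WT replicate 3 and 457 with the Y-linked covariate. Of 35 disease-associated genes 29 were among those higher, as were 20 of 39 interferon genes, and 14 of 26 homeostatic genes were among those lower. The APP change exceeded the WT change by 8.08 for Cst7, 7.75 for Igf1 and 6.68 for Apoe. It was below the WT change by 3.04 for Tmem119, and Bank1, Itga9 and Stab1 differed by -4.27, -4.03 and -3.45. Gate and genotype differ together in this contrast and cannot be told apart.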

How the data were processed

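Microarray expression was measured in 23 samples, of which the 7 of the APP line form the main comparison. The values the authors deposited are log2 signals made with RMA in the Transcriptome Analysis Console, per the submitters' processing notes; versions, filters and genome build are not given in the sources used here. Labelled targets were made from 5 ng of total RNA with a 3′ kit, per the labels' protocols. Probe sets on X or Y (1195) were left out, and 21008 were fitted with limma 3.58.1 in R 4.3.3 (eBayes without trend, 5 residual and 5.57 prior degrees of freedom, median SE 0.238), 2-sided, with Benjamini-Hochberg adjustment. Interactions used all 23 samples. The number of arrays limits the precision. A symbol held by several probe sets was read from the one with the highest mean. Named genes were the 10 largest rises and falls with groups apart and above background, the 6 and 4 largest bounds, up to 4 called members per list by p, the 5 largest called interaction differences per direction where both groups of at least 1 line were above background, called markers of other cells, and 14 genes of known interest. The members and lists (31 of pathways, 10 of cell types) were chosen with earlier results of these data known. Probe sets without a symbol are not named. The fits were tested on simulated data. Promoters are from RefSeq (GRCm38.p6). Alternatives changed normalization, filters, weights, covariates and the samples included.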

Additional observations from a re-analysis of the deposited data

Results flagged for a closer look

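Of 151 named genes, 8 had 1 of the 4 gated APP samples far from the others by Dixon's ratio (above its 95% critical value), and chance flags about 1 in 20 groups, a share that 8 of 151 does not exceed by much. Replicate 4 was low for Stab1 (ratio 0.833), Ada (0.857) and Cdkn1a (0.952), the last at 14.12 against 14.91 to 14.95. Replicate 2 was high for Itgax (0.879), at 12.58, and for Il10ra (0.912), at 14.11. Replicate 3 was high for Sdf2l1 (0.859) and S100a8 (0.833) and low for Ccnb2 (0.866). In each of these genes the gated samples still lay on the same side of all young samples.

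The change of the APP line differed from that of the TAU line, by the interaction test in limma, in 57 probe sets. Among those with both groups of at least 1 line above background, the 5 largest in each direction were higher in APP for Igf1 (3.53), Adarb1 (2.81), Fabp3 (2.59), Wfdc17 (2.07) and Sc5d (2.03), and lower for H2-Eb1 (-5.11), Postn (-2.93), H2-Aa (-2.7), Mmp2 (-2.27) and Ifi30 (-1.79). Postn differed by 0.09 ± 0.30 within the APP line, with overlapping groups, and Mmp2 fell there by 0.94 on the log2 scale.

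The APP change differed from the WT change in 853 probe sets. With the same limit on background, the 5 largest in each direction were higher in APP for Cst7 (8.08), Igf1 (7.75), Apoe (6.68), Fabp3 (5.73) and Ifitm3 (5.38), and lower for Bank1 (-4.27), Itga9 (-4.03), Stab1 (-3.45), Fam71a (-3.1) and Tmem119 (-3.04). The difference between the APP and WT changes of Fam71a was not called once the Y-linked mean was in the fit.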

How the results depend on the processing

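No called named gene and no called difference between lines changed direction under the alternatives run. Postn, not called, ran from -0.15 to 0.25 as arrays were left out and was -0.44 with the Y-linked covariate. List medians near 0 changed sign: lipid uptake to -0.16, Toll-like genes to 0.05, TREM2 and Fc receptors to 0.16 and iron genes to 0.29. With array weights the calls numbered 3379 (1623 higher, 1756 lower). Adding the Y-linked mean to the fit gave 634 (377 higher, 257 lower), all 634 of at least 1 on the log2 scale; 45 of the 151 named genes were no longer called and 1, H2-Eb1, became called. Gated replicate 4 alone against the young samples, an alternative added after seeing the data, gave 100 calls (92 higher, 8 lower), all 100 of at least 1, with 116 named genes no longer called. Leaving out each array gave 1116 to 1923 calls (673 to 1002 higher, 443 to 921 lower, 1087 to 1719 of at least 1), the lowest 2 without young replicates 3 and 2. Deviations of same-numbered samples correlated at -0.037, 0.037 and -0.124, and those of other-numbered samples at -0.392 to 0.309. With so few samples these values cannot show whether the numbers are a pairing. With the replicate block 1511 probe sets were called, and 10 named genes were lost. Renormalizing, centring, a trend, the dim filter, the chromosome filters and a model of all 23 samples kept the count within 1.5 times (1849 to 2678).

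For APP against TAU, the dim filter gave 26 calls (16 higher, 10 lower), array weights 123 (82 and 41), and leaving out each array 40 to 64 (23 to 45 higher, 14 to 23 lower). For APP against WT, array weights gave 1552 (968 and 584), the Y-linked covariate 457 (305 higher), centring 151 lower, the replicate block 377 lower, and leaving out each array 610 to 1202 (461 to 841 higher, 149 to 361 lower). The causes were not tested. Signal near background limits what can be read: 13088 probe sets were at background in both APP groups.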
